A study of Saccharomyces cerevisiae with 17 samples.

Results

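In budding yeast lacking the H3K4 methyltransferase Set1, 530 of 1609 nuclear ChIP-seq peaks were found with one H3K4 methylation antibody and not with the other. They fell into 334 of the 874 nuclear peaks of the H3K4me2 antibody (38.2%) and 196 of the 735 nuclear peaks of the H3K4me3 antibody (26.7%). A peak was placed in one of these sets when it shared no base with any peak of the other antibody's list. The sets are called H3K4me2-only and H3K4me3-only here, and the remaining 540 H3K4me2 and 539 H3K4me3 peaks are called shared. Members were chosen by the called positions in both lists, which rest on the enrichment measured with each antibody, so overlap, the distance to the other list, and the score and width that bear on calling a peak are given as descriptions with no test.

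Chromatin immunoprecipitation followed by sequencing was done on Saccharomyces cerevisiae of the BY4741A background, grown in YPD medium to log phase and fixed with formaldehyde. The antibodies were homemade rabbit polyclonal sera, 1 for H3 dimethylated at lysine 4 (H3K4me2) and 1 for H3 trimethylated at lysine 4 (H3K4me3). The set1 deletion lists come from 1 replicate per antibody, and so do the wild-type lists used for comparison, which come from cells labelled as wild type for Cps25, a COMPASS subunit encoded by SDC1. The other 13 of 17 samples were not analysed here. With 1 list per antibody and genotype, differences describe these libraries and have no replicate check. Intervals in brackets are exact 95% binomial intervals and cover counting error only.

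COMPASS is the complex whose catalytic subunit, Set1, is the only enzyme known to methylate H3K4 in this yeast. H3K4me3 in wild-type cells is known to mark the first nucleosomes of transcribed genes, and H3K4me2 lies further into the gene. A peak called in set1 deletion cells therefore marks a place where the antibody recovered DNA without the known methylase. No peak of either antibody overlapped SET1 in the set1 deletion lists, whereas both wild-type lists held a peak over the start of SET1, 798 bp wide with H3K4me3 and 1813 bp wide with H3K4me2.

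The sets lay in different places. H3K4me2-only peaks were found over no annotated gene in 98 of 334 cases, or 29.3% (24.5 to 34.5), against 12 of 196 H3K4me3-only peaks, or 6.12% (3.20 to 10.5). Among shared peaks the share over no gene was 6.11% with H3K4me2 and 5.94% with H3K4me3, and over all nuclear peaks it was 15.0% and 5.99%. A protein-coding open reading frame (ORF) lay under 63.5% of H3K4me2-only and 92.9% of H3K4me3-only peaks, against 54.1% of all nuclear H3K4me2 peaks and 57.0% of all nuclear H3K4me3 peaks. The H3K4me2-only set thus held a larger intergenic portion than the shared peaks did, and the H3K4me3-only set a portion within counting error of theirs. Shared peaks lay over tRNA genes in 47.2% of cases with H3K4me2 and 47.3% with H3K4me3, which lowers their intergenic portion. For scale, ORFs make up 72.9% of nuclear bases, so the contrast with shared peaks is no measure against the genome. The gene table has no transposons, long terminal repeats, replication origins or centromeres, so "no gene" means no ORF or RNA gene of that table.

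**Figure D1:**
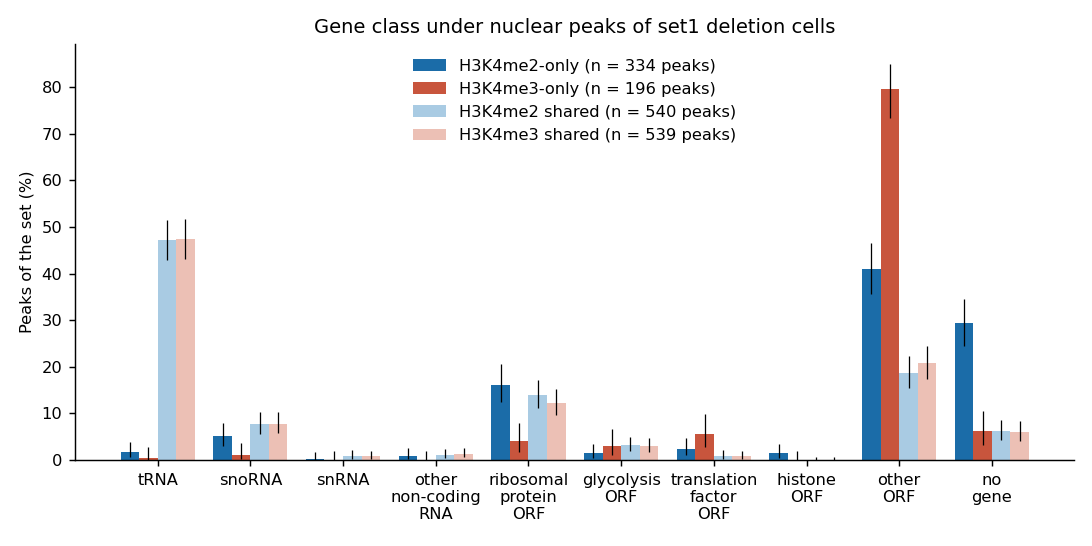
Percent of peaks in each gene class (vertical axis) for H3K4me2-only, H3K4me3-only and shared peaks of set1 deletion cells, with exact 95% binomial intervals as lines. H3K4me2-only peaks stand out in the class with no gene (29.3%), H3K4me3-only peaks in the class of other ORFs, and shared peaks in the tRNA class.

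Genes for transfer RNA, the adaptors of translation made by RNA polymerase III, were nearly absent from both sets. Only 6 of the 261 H3K4me2 peaks over tRNA genes (2.30%) and 1 of the 256 H3K4me3 peaks over tRNA genes (0.391%) were found with 1 antibody. By contrast, 74.8% of the 131 H3K4me2 peaks over no gene were H3K4me2-only, while 27.3% of the 44 H3K4me3 peaks over no gene were H3K4me3-only. Over ORFs outside the named classes the portions were alike, at 57.6% of 238 H3K4me2 peaks and 58.2% of 268 H3K4me3 peaks.

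One intergenic group was at the centromeres, where the kinetochore assembles on a single specialised nucleosome that holds the H3 variant Cse4. Each of the 16 chromosomes has 1 gene-free interval between the innermost genes of its left and right arms, which the systematic names number outward from the centromere. These intervals spanned 630 to 2541 bp, with a median of 984 bp. A H3K4me2 peak lay inside 14 of the 16, always a single one. Of these, 9 were H3K4me2-only (chromosomes I, V, VI, VII, VIII, IX, X, XI and XIV) and 5 were shared (II, III, IV, XIII and XVI). No interval held a H3K4me3-only peak, and those of chromosomes XII and XV held no peak of either antibody. The 9 of 14 that were H3K4me2-only (64.3%) compare with 74.8% of all H3K4me2 peaks over no gene, and they made up 9.18% of the H3K4me2-only peaks over no gene, against 15.2% of the shared H3K4me2 ones. The centromere intervals were singled out after their values were seen.

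The centromeric H3K4me2-only peaks ranked high in their list. The authors' score of a peak has no stated scale, so it is given as a percentile, the share of the list's peaks with that score or a lower one. The peak at chromosome XIV, 628723 to 628939, between DOM34 and CIT1, was at percentile 97.2. On chromosome V the peak at 151962 to 152339 was at percentile 96.3, and on chromosome VI the one at 148484 to 148678 was at 94.3. Those 3 and the chromosome VII peak at 496814 to 497063 (percentile 90.5) were among the 10 highest scores of the whole H3K4me2-only set. The other 5 were at percentile 79.4 on chromosome VIII, 72.8 on X, 63.9 on I, 58.8 on XI and 56.0 on IX. The 5 shared centromeric peaks ranked higher still with H3K4me2, between 96.8 and 99.6, and lower with H3K4me3, between 70.8 and 96.1. The widths of the H3K4me2-only ones were 150 to 378 bp with a median of 217 bp, and those on chromosomes V, X and I (378, 349 and 339 bp) were the 3 widest of all 98 H3K4me2-only peaks over no gene.

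**Figure D2:**
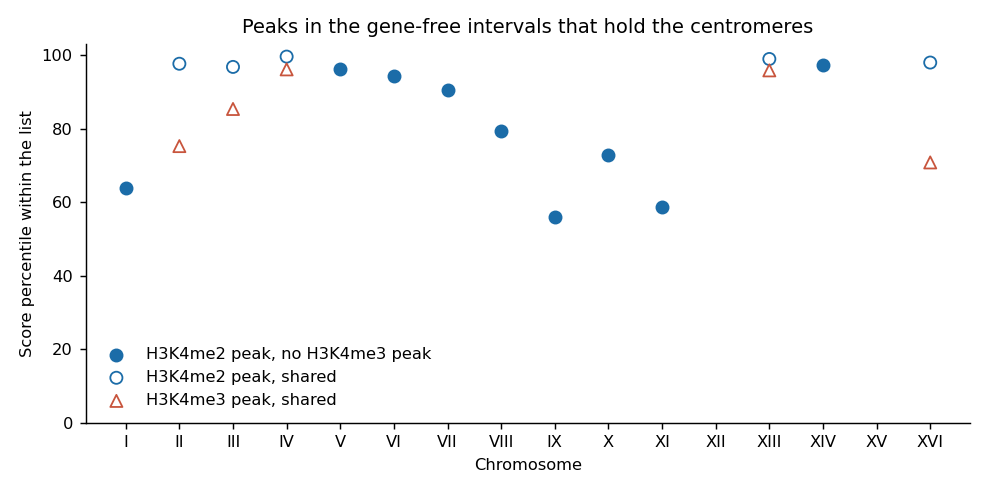
Score percentile within its own list (vertical axis) of each set1 deletion peak inside the gene-free interval that holds the centromere, by chromosome. Filled circles are the 9 H3K4me2-only peaks (56.0 to 97.2), open circles the 5 shared H3K4me2 peaks (96.8 to 99.6) and open triangles the 5 shared H3K4me3 peaks (70.8 to 96.1). Chromosomes XII and XV have none.

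Peaks upstream of ribosomal protein genes were a larger intergenic group of the H3K4me2-only set. The start codon of a cytosolic ribosomal protein gene faced 26 of the 98 H3K4me2-only peaks over no gene, or 26.5% (18.1 to 36.4), and 1 of the 12 H3K4me3-only ones, upstream of RPL40B. Among all 6238 gene-free intervals, a ribosomal protein start faced 2.13%. Among shared peaks over no gene it faced 5 of 33 with H3K4me2, or 15.2% (5.11 to 31.9), and 5 of 32 with H3K4me3, or 15.6% (5.28 to 32.8), so the intervals of H3K4me2-only and shared peaks overlapped. The 26 peaks faced 27 of the 138 ribosomal protein genes. They lay 143 to 655 bp from the start codon of the ribosomal protein gene, with a median of 264 bp, and only the distance to RPL24B exceeded 500 bp. The nearest facing start codon of any gene was 56 to 466 bp away, with a median of 225.5 bp, so some of the 26 lay nearer another gene's start. Percentiles of the 26 ran between 1.94 and 73.9 with a median of 55.9, and 18 of the 26 were in the upper 50% of the list by score. The highest was upstream of RPS19A at chromosome XV, 93038 to 93369, with 332 bp of width and 187 bp to the start codon. Next came RPL23B at percentile 72.2, RPL35A at 71.4 and RPL22B at 71.3, with distances of 274, 199 and 143 bp to their own start codons. These peaks overlap no coding sequence, and whether the sequences upstream of ribosomal protein paralogs resemble each other was not tested.

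A start codon faced 82 of the 98 intergenic H3K4me2-only peaks, those at ribosomal protein genes included. Neighbouring genes diverged from 43 of the 98 peaks (43.9%), ran in tandem around 39 (39.8%) and converged on 14 (14.3%), and 2 lay beyond the last gene of a chromosome. Over all gene-free intervals 26.0% were divergent, 48.2% tandem and 25.8% convergent, or 34.4%, 50.5% and 15.2% when weighted by length. Among the highest scores were chromosome II, 165218 to 165440, between YBL029C-A and YBL029W (percentile 94.2), and chromosome XV, 925236 to 925425, between FRT1 and MYO2 (85.4), MYO2 encoding a myosin that moves organelles into the bud. On chromosome XIII, 861189 to 861376, a peak lay between LCB1, a subunit of the first enzyme of sphingolipid synthesis, and PRC1, the vacuolar carboxypeptidase Y (83.3). A peak at 253393 to 253574 of the same chromosome, between MIN4 and YAP1, a transcription factor of the oxidative stress response, was at percentile 82.7. All 4 of these lay between divergent genes.

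All 12 H3K4me3-only peaks over no gene faced a start codon, 8 between divergent genes and 4 in tandem. The highest lay at chromosome V, 225504 to 225654, between ARB1, a protein of ribosome biogenesis, and PHM8, a phosphatase, at percentile 81.0. It was also the highest of the whole H3K4me3-only set and the only one of the 196 in the upper 20% of its list. The next were chromosome VI, 4674 to 4851 (63.5), chromosome XII, 11265 to 11412 (60.8), chromosome IV, 411367 to 411513, upstream of GPD1, which makes glycerol 3-phosphate (56.8), and chromosome X, 578432 to 578604, between MIR1 and BNA2 (49.0). The widest were 338 bp downstream of NPL3 on chromosome IV, 180 bp on chromosome VII and the 178 bp peak on chromosome VI. The peaks on chromosomes VI and XII lie among subtelomeric gene families whose copies resemble each other, so reads may belong to another copy.

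Intergenic peaks also set the top of each set by score. Of the 10 highest scores, 8 of the H3K4me2-only set and 5 of the H3K4me3-only set lay over no gene. The exceptions in the H3K4me2-only set were SWR1 and a tRNA gene, YNCH0015W. SWR1, the motor of the complex that places the histone variant H2A.Z, held the highest score of the set at chromosome IV, 1135681 to 1136037 (357 bp, percentile 99.8). Only 106 bp of that peak lay over the ORF, and its centre lay before the start codon. The tRNA peak at chromosome VIII, 466844 to 467110, was at 98.6. In the H3K4me3-only set the genes among the 10 highest were the tRNA gene YNCC0010C (73.1), ILS1, the cytosolic isoleucyl-tRNA synthetase (61.1), HPF1, a cell wall mannoprotein (57.9), ECM33, a cell wall protein anchored by a lipid (53.3), and API2 (48.9).

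Both sets were narrow and low in score beside the shared peaks. The median width was 188 bp for H3K4me2-only peaks (range 146 to 766) and 186.5 bp for H3K4me3-only peaks (146 to 654), against 327 and 294 bp for shared H3K4me2 and H3K4me3 peaks. Under 200 bp were 57.2% of H3K4me2-only and 61.2% of H3K4me3-only peaks. The median percentile was 26.8 for H3K4me2-only and 19.99 for H3K4me3-only peaks, against 67.7 and 63.4 for shared ones. In the upper 50% of their list were 72 H3K4me2-only peaks (21.6%) and 8 H3K4me3-only peaks (4.08%). Of the 72, 48 lay over no gene, and of the 8, 4 did. Restricting the sets to these higher scores therefore raised the intergenic share to 66.7% of H3K4me2-only and 50% of H3K4me3-only peaks, and the ORF share became 20.8% and 37.5%.

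**Figure D3:**
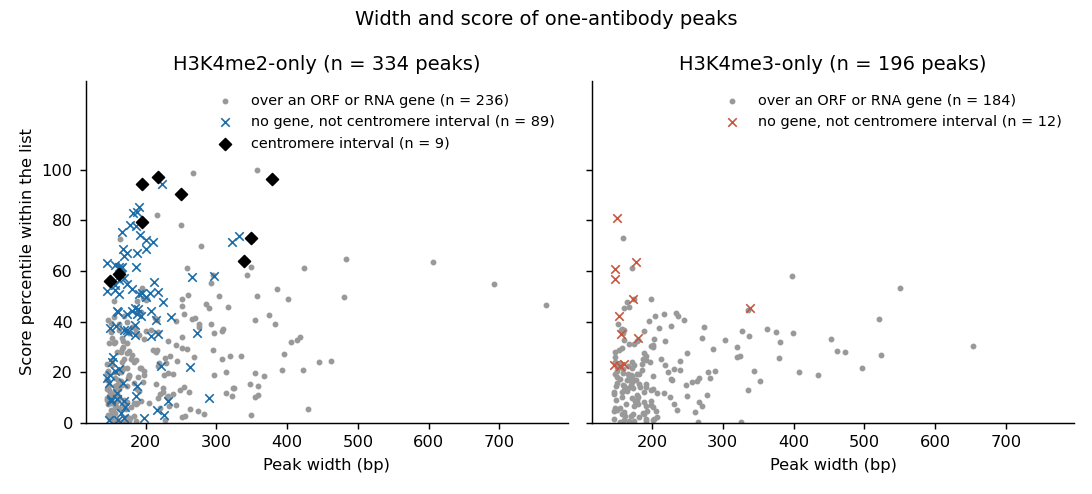
Peak width (horizontal axis, bp) against score percentile within its own list (vertical axis), with 1 mark per peak, for the 334 H3K4me2-only peaks and the 196 H3K4me3-only peaks. Most marks lie low and at the left in both panels, and the upper part of the H3K4me2-only panel is held mainly by peaks over no gene (crosses) and by the 9 centromere intervals (diamonds).

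The widest peaks were over genes in both sets. In the H3K4me2-only set they were 766 bp over RPS20 and YLF2, 692 bp over FAA4 and the small nucleolar RNA gene SNR86, 606 bp over MRH1, 483 bp over BAP2, a permease for branched-chain amino acids, and 481 bp over the tRNA genes YNCD0011W and YNCD0012W and the neighbouring UBC5. In the H3K4me3-only set they were 654 bp over SRP40, a nucleolar protein, 550 bp over ECM33, 523 bp over FAS2, the alpha subunit of fatty acid synthase, 521 bp over HPF1 and 497 bp over VHR2. All 10 of these had percentiles between 21.8 and 64.8.

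At least 1000 bp separated 60.8% of H3K4me2-only and 65.8% of H3K4me3-only peaks from the nearest called peak of the other antibody. Whether the other antibody had enrichment too weak to be called at the members was not tested. The gap to the nearest peak of the other antibody had a median of 2349.5 bp for H3K4me2-only and 2594 bp for H3K4me3-only peaks. It was under 500 bp for 88 (26.3%) and 51 (26.0%), and at least 10000 bp for 89 (26.6%) and 39 (19.9%). Closest to the threshold were TIF34, where an H3K4me2-only peak and an H3K4me3-only peak were 10 bp apart, then RPS30B (45 bp) and a peak over no gene on chromosome XVI (52 bp) with H3K4me2, and TMA19 (52 bp) and BAP2 (58 bp) with H3K4me3. Just across it were shared H3K4me2 peaks with 7 bp of overlap beside NPL3, 12 bp at PTR2 and 37 bp at RPS23B and SPN1. The shared H3K4me3 peaks with least overlap were at NPL3 (7 bp), PSE1 (31 bp) and HXT2 (36 bp).

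Within genes the sets took different places. Of the 212 H3K4me2-only peaks over an ORF, 36.3% (29.8 to 43.2) were wholly inside it, against 92.9% (88.1 to 96.1) of 182 H3K4me3-only peaks. With the ORF cut into 3 equal parts, the peak centre lay in the first part or before it for 39.2% of H3K4me2-only peaks, in the middle part for 12.3%, and in the last part or beyond for 48.6%. For H3K4me3-only peaks the values were 26.4%, 36.8% and 36.8%. Among shared H3K4me2 peaks 26.4% were wholly inside the ORF, and the 3 portions were 33.0%, 21.8% and 45.2%. Among shared H3K4me3 peaks 42.2% were wholly inside, and the portions were 29.5%, 28.3% and 42.2%. The middle portion of H3K4me2-only peaks (8.17 to 17.5) was thus small beside that of H3K4me3-only peaks (29.8 to 44.3), whose interval overlapped that of shared H3K4me3 peaks (22.6 to 34.5). The start codon was covered by 61 H3K4me2-only peaks (18.3%) and 5 H3K4me3-only peaks (2.55%), and the stop codon by 81 (24.3%) and 10 (5.10%). Shared H3K4me2 peaks covered a start codon in 18.0% and a stop codon in 25% of cases, and shared H3K4me3 peaks in 9.28% and 21.2%. A base within 500 bp before an ORF start was touched by 51.2% of H3K4me2-only and 10.2% of H3K4me3-only peaks, against 51.3% and 43.6% of shared H3K4me2 and H3K4me3 peaks. Such bases make up 21.3% of the nuclear genome. In these 3 measures of gene edges the H3K4me2-only values lay close to those of shared H3K4me2 peaks and the H3K4me3-only values below those of shared H3K4me3 peaks, although shared peaks are wider, which raises the portion that reaches an edge.

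The genes differed in length too. H3K4me2-only peaks lay over 205 of 6002 nuclear ORFs (3.42%) and H3K4me3-only peaks over 150 (2.5%). The median length, introns included, was 876 bp under H3K4me2-only peaks and 1713 bp under H3K4me3-only peaks, against 858 bp under shared peaks and 1200 bp over all ORFs. ORFs of at least 2000 bp made up 12.2% and 34.0%, against 22.1% of all ORFs, and ORFs under 600 bp made up 30.2% and 4.67%, against 19.1%. Ribosomal protein genes are short, and without them the medians were 1026 and 1750.5 bp. Several peaks over 1 ORF were found for 31 ORFs of the H3K4me3-only set and 15 of the H3K4me2-only set. KRS1, the cytosolic lysyl-tRNA synthetase, PFK2, a subunit of phosphofructokinase, and FAS2 each held 3 H3K4me3-only peaks.

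**Figure D4:**
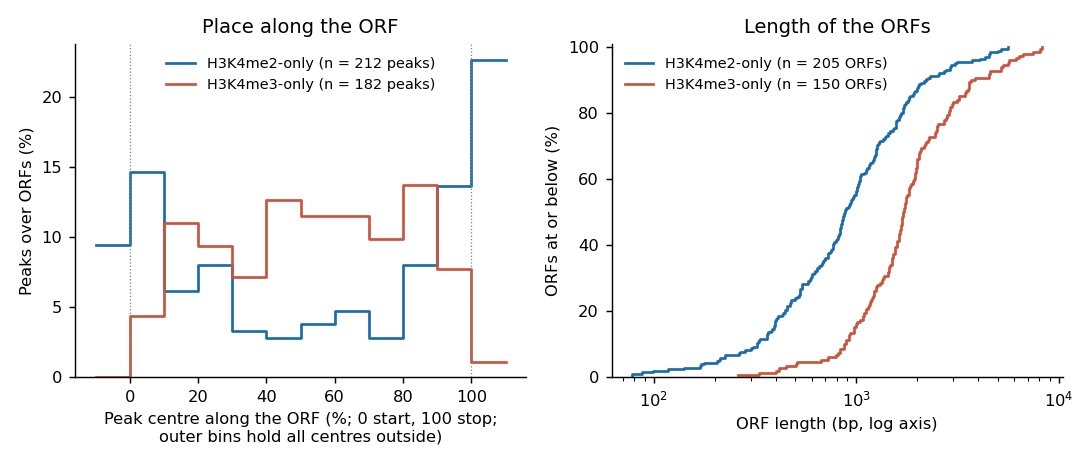
Left, percent of the peaks over ORFs (vertical axis) by the place of the peak centre along the ORF (horizontal axis, percent of its length, start codon at 0 and stop codon at 100, with all centres outside the ORF in the outer bins). H3K4me2-only peaks are most frequent at both ends, and H3K4me3-only peaks are spread more evenly. With the ORF cut into 3 equal parts, the middle part holds 36.8% of H3K4me3-only centres and 12.3% of H3K4me2-only ones. The last part or beyond also holds 36.8% of H3K4me3-only centres, and the first part or before it 26.4%. Right, cumulative percent of ORFs (vertical axis) by length (log axis, bp), where the H3K4me3-only curve lies to the right, with medians of 876 and 1713 bp.

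Ribosomal protein genes were the gene class that differed most in number between the sets. Of 138 such genes, 47 lay under an H3K4me2-only peak (34.1%) and 8 under an H3K4me3-only peak (5.80%), beside 3.42% and 2.5% of all ORFs. Shared peaks lay over 63 of the 138 (45.7%), beside 241 of all ORFs (4.02%). Of the 129 H3K4me2 peaks over ribosomal protein ORFs 41.9% were H3K4me2-only, close to the 38.2% of all H3K4me2 peaks, and of the 74 H3K4me3 peaks 10.8% were H3K4me3-only, against 26.7% of all H3K4me3 peaks. Within the H3K4me2-only set the 54 peaks of this class had a median width of 231.5 bp and a median percentile of 21.3. The highest were RPL41A at percentile 61.4, RPS11A at 58.4 and RPS22A at 53.1. The RPL41A and RPS11A peaks lay mostly outside the ORF, with 21 of 349 bp and 104 of 343 bp over it. The H3K4me3-only members were RPL13B, RPL16A, RPL26A, RPL6B, RPS0B, RPS16A, RPS16B and RPS7B, with percentiles between 4.98 and 47.6. Among them, RPL13B, RPS16B and RPS0B also held an H3K4me2-only peak. Most ribosomal protein genes have a near-identical paralog, so a peak inside the coding sequence may come from reads of either copy.

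The other genes of protein synthesis were divided between the sets. Of 33 translation factor genes, 8 lay under H3K4me2-only and 8 under H3K4me3-only peaks (24.2% each), beside 3.42% and 2.5% of all ORFs. Shared peaks lay over 6 of the 33 (18.2%), beside 4.02% of all ORFs. The H3K4me2-only ones included TEF2, a gene for elongation factor eEF1A (percentile 55.2), HYP2, for eIF5A (52.0), EFT2, for elongation factor eEF2 (48.1), and CDC33, for the cap-binding protein eIF4E (39.6). The peaks at TEF2, EFT2 and CDC33 overlapped only 31, 21 and 29 bp of the ORF and lay mostly outside it. The H3K4me3-only ones included TIF5, for eIF5 (32.7), SUP35, for release factor eRF3 (30.1), PAB1, for the poly(A)-binding protein (6.73), and TIF4631, for eIF4G, with 2 peaks (19.1 and 14.8). Initiation factor eIF3, the scaffold that joins the small ribosomal subunit to other initiation factors, appeared in both sets: RPG1, TIF34 and TIF35 of 6 listed genes with H3K4me2-only peaks, and NIP1, PRT1, RPG1 and TIF34 with H3K4me3-only peaks. Cytosolic aminoacyl-tRNA synthetases, which charge tRNAs, lay under H3K4me3-only peaks in 6 of 20 cases (30%, DPS1, HTS1, ILS1, KRS1, MES1 and THS1). They lay under H3K4me2-only peaks in 1 case (5%, THS1). No gene of the eIF3 or synthetase list lay under a shared peak. None of these shares was adjusted for ORF length. The eIF3 and synthetase lists were written after these genes had been seen among the members.

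Genes of glycolysis were divided between the sets as well. Of 23 genes of glycolysis and fermentation, the H3K4me2-only peaks lay over ENO2, PDC1, PGK1, TDH3 and TPI1, which encode enzymes of the lower pathway, triose phosphate isomerase and pyruvate decarboxylase. The H3K4me3-only peaks lay over HXK1, PFK1, PFK2 and PGI1, which encode hexokinase, both phosphofructokinase subunits and phosphoglucose isomerase of the upper pathway. TDH3 held the widest and highest of these H3K4me2-only peaks (424 bp, percentile 61.0), and PFK1 the widest and highest of the H3K4me3-only ones (271 bp, percentile 33.4). The TDH3 peak overlapped only 25 bp of its ORF and lay mostly beyond the stop codon. Shared peaks lay over 11 genes of the list, 5 of which were also members, namely PGK1, PDC1, TDH3, TPI1 and HXK1. The H3K4me2-only, H3K4me3-only and shared peaks thus lay over 21.7%, 17.4% and 47.8% of the list. Over all ORFs the shares were 3.42%, 2.5% and 4.02%.

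Core histone genes, which package DNA and are expressed in S phase, had peaks with H3K4me2 only. All 5 H3K4me2 peaks over them were H3K4me2-only, over HTA1 (percentile 47.0), HHT1 (26.4 and 16.8), HTB1 (12.4) and HTB2 (3.67), while no H3K4me3 peak overlapped any of the 10 genes. These genes were 40% of the list, beside 3.42% of all ORFs. The HTA1 peak had 61 of its 286 bp over the ORF, the higher HHT1 peak 63 of 234 bp and the HTB1 peak 106 of 224 bp. These peaks thus lay mostly outside the ORF. Histone genes come in near-identical pairs, with the same doubt about the copy.

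In each of the other lists at most 6 genes lay under either set. For comparison, 3.42% of all nuclear ORFs lay under H3K4me2-only and 2.5% under H3K4me3-only peaks, and 4.02% under shared peaks. Nucleotide synthesis had 6 of 29 genes (20.7%) under H3K4me2-only peaks (ADE6, IMD2, IMD3, IMD4, URA3 and URA8). Of these genes, URA3 is often altered in laboratory strains, so its reads may come from an introduced copy. The nucleotide list had 5 (17.2%) under H3K4me3-only peaks (ADE13, GUA1, IMD4, URA2 and URA7) and 13.8% under shared peaks. Plasma membrane and cell wall genes had 5 and 6 of 29 (17.2% and 20.7%), with 34.5% under shared peaks. Transporters had 4 and 6 of 32 (12.5% and 18.8%), with 21.9% under shared peaks. For sterol and fatty acid synthesis there were 2 of 31 (6.45%, ERG25 and ERG6) and 5 of 31 (16.1%, ERG1, ERG11, ERG25, FAS1 and FAS2). Shared peaks lay over 3.23% of that list. Ribosome biogenesis gave 6 and 5 of 64 (9.38% and 7.81%), and amino acid and one-carbon synthesis 3 and 1 of 55 (5.45% and 1.82%). Chaperones gave 2 and 1 of 27 (7.41% and 3.70%), and cyclins and cell cycle regulators 1 and 0 of 29 (3.45% and 0%). Among the 8 COMPASS subunits only SDC1, which encodes Cps25, was a member. Its H3K4me2-only peak covered 462 of the gene's bases (chromosome IV, 1399054 to 1399515, percentile 24.5) and shared 386 bp with a wild-type H3K4me3 peak.

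Genes for small nucleolar RNAs, which guide the modification of ribosomal RNA, lay mostly under shared peaks. Of the 59 H3K4me2 peaks over them 17 (28.8%) were H3K4me2-only, against 38.2% of all nuclear H3K4me2 peaks. Of the 44 H3K4me3 peaks 2 (4.55%) were H3K4me3-only, against 26.7% of all nuclear H3K4me3 peaks. H3K4me2-only peaks lay over 15 of 76 such genes and H3K4me3-only peaks over 2 (SNR86 and SNR191, the last inside NOG2), while 56 lay under shared peaks. SNR86 lay under both kinds of one-antibody peak. The highest of the 17 H3K4me2-only peaks was over SNR17B, a gene for the U3 RNA of rRNA processing (percentile 61.3), then the one over FAA4 and SNR86 (54.9), SNR65 (52.9), SNR81 (50.4) and SNR43 (41.5). The others were over SNR5, SNR33, SNR63, SNR64, SNR69, SNR79, SNR82, SNR84, SNR87 and SNR189, at percentiles of 1.51 and above. SNR14, the U4 spliceosomal RNA gene, had an H3K4me2-only peak at percentile 58.5. Other RNA genes with an H3K4me2-only peak were ZOD1, a locus known to bind the RNA polymerase III machinery (82.0), RUF23 (59.0) and IRT1, a transcript through the promoter of IME1 (48.4).

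Of the 275 nuclear tRNA genes, 7 lay under H3K4me2-only peaks, 1 under an H3K4me3-only peak and 258 under shared peaks. The H3K4me2-only ones not yet named were YNCL0008W (percentile 78.0), YNCG0016C (72.5), YNCE0021C (48.8) and YNCP0017C (36.7). Their gaps to the nearest H3K4me3 peak were 1059 to 21375 bp. The table gives these genes by locus tag alone.

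A total of 27 of 6002 nuclear ORFs (0.450%) lay under a member of each set, and 18 of the 27 under no shared peak. They had a median length of 1830 bp. Counting peaks whose largest ORF overlap was with that gene, the H3K4me2-only centres lay nearer the stop codon than the H3K4me3-only ones in 16 of the 27, nearer the start codon in 9, and interleaved in 2. In TIF34, of 1044 bp, the H3K4me2-only peak at chromosome XIII, 557520 to 557762, lay toward the stop codon and the H3K4me3-only peak at 557773 to 557999 upstream of it. In RPG1 the H3K4me2-only peak covered the last 4 bp of the ORF and the sequence beyond it, and both H3K4me3-only peaks lay inside the ORF. THS1 and EGT2, a gene for a cell separation protein, also had their H3K4me2-only peaks nearer the stop codon than their H3K4me3-only ones. The same order held in DIP5, DSE2, KRE6, NOG1, RPO21, SUN4 and TPS2. FKS1, a subunit of glucan synthase, had the 4 peaks in the order H3K4me2-only, H3K4me3-only, H3K4me3-only, H3K4me2-only along its 5631 bp. In ERG25, FMP48, GNP1, HAP1, RPL13B and RPS16B the H3K4me2-only peaks lay nearer the start codon, at 12.2%, 7.25%, 1.71%, 6.17%, 15.6% and 29.0% of the ORF, although a second H3K4me2-only peak, which overlaps YMR141C by more bases, also touched RPL13B. ACT1, BAP2, ECM33, HXT3, IMD4, INA1, PDR5, RPS0B and SCW11 also lay under a shared peak of at least 1 antibody.

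Within 10 kb of a chromosome end there were 6 H3K4me2-only peaks, over IMD2 and FET4 and over no gene on chromosomes I, VII, XII and XIII, and 2 H3K4me3-only peaks, over AAD3 and on chromosome VI. They made up 1.80% (0.662 to 3.87) and 1.02% (0.124 to 3.64) of the sets, near the 1.30% of shared peaks of either antibody. Among the members near an end, IMD2 had the highest score with H3K4me2 (percentile 72.1) and the chromosome VI peak with H3K4me3 (63.5). IMD2, for IMP dehydrogenase of GTP synthesis, has close relatives, so its copy is uncertain. Only 4 of the 350 bp of its peak lay over the ORF, and the rest lay before the start codon.

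The wild-type lists allow a comparison in cells with Set1. Listed wild-type peaks of the other antibody overlapped 126 of 334 H3K4me2-only peaks, or 37.7% (32.5 to 43.2), and 58 of 196 H3K4me3-only peaks, or 29.6% (23.3 to 36.5). Over all nuclear peaks of set1 deletion cells the values were 16.2% and 9.12%. That background is lowered by the lists themselves, because the authors took set1 deletion peaks of the same antibody out of each wild-type list, which leaves shared peaks little chance to overlap one. For scale, the wild-type H3K4me3 list covered 20.3% and the wild-type H3K4me2 list 25.9% of nuclear bases.

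The overlap with wild-type peaks went with the gene class. Of the 54 H3K4me2-only peaks over ribosomal protein ORFs, 41 (75.9%) overlapped a wild-type H3K4me3 peak, and of the 137 over other ORFs 54 (39.4%) did. Of the 98 over no gene, 17 (17.3%) did, and of the 6 over tRNA genes none did (interval 0 to 45.9%). Among H3K4me3-only peaks, 48 of 156 over other ORFs (30.8%) and none of the 12 over no gene (0 to 26.5%) overlapped a wild-type H3K4me2 peak. The SWR1 peak shared 301 of its 357 bp with a wild-type H3K4me3 peak. No centromere interval held a listed wild-type peak of either antibody wholly inside it.

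Wild-type peaks of the same antibody were removed by the authors, but the numbers in their names were kept. A number is absent in 291 of the 4377 intervals between neighbouring wild-type H3K4me2 peaks and in 230 of the 4071 H3K4me3 intervals, and every one of these intervals holds a set1 deletion peak of that antibody. Intervals with no absent number held such a peak in 7.0% and 7.34% of cases. Where a member is the only set1 deletion peak of its antibody in an interval, an absent number therefore marks a wild-type peak that had been called there. This was so for 66 of 137 such H3K4me2-only peaks (48.2%, interval 39.6 to 56.9) and 25 of 84 H3K4me3-only peaks (29.8%, 20.3 to 40.7), against 38.0% and 37.0% of all nuclear peaks alone in an interval.

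By class, all 13 H3K4me2-only peaks over ribosomal protein ORFs that could be read this way had an absent number, as did 35 of 62 over other ORFs (56.5%), 8 of 43 over no gene (18.6%) and 0 of 6 over tRNA genes. Shared H3K4me2 peaks had 20 of 20, 14 of 17 (82.4%), 4 of 13 (30.8%) and 32 of 186 (17.2%) in the same classes. For H3K4me3-only peaks the counts were 18 of 69 over other ORFs (26.1%) and 0 of 5 over no gene, against 16 of 21 (76.2%) and 3 of 13 (23.1%) for shared H3K4me3 peaks. The order of these classes with H3K4me2 was thus the same for one-antibody and shared peaks, but snoRNA genes broke it. Their peaks had an absent number in 5 of 6 H3K4me2-only cases (83.3%) and 11 of 21 shared H3K4me2 cases (52.4%). They thus ranked above other ORFs in the H3K4me2-only set and below them among shared peaks. Of the 9 H3K4me2-only centromere peaks, all alone in their interval, only that of chromosome I had an absent number. Peak calling settings are not stated for either genotype, and the part that depth played was not tested.

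**Figure D5:**
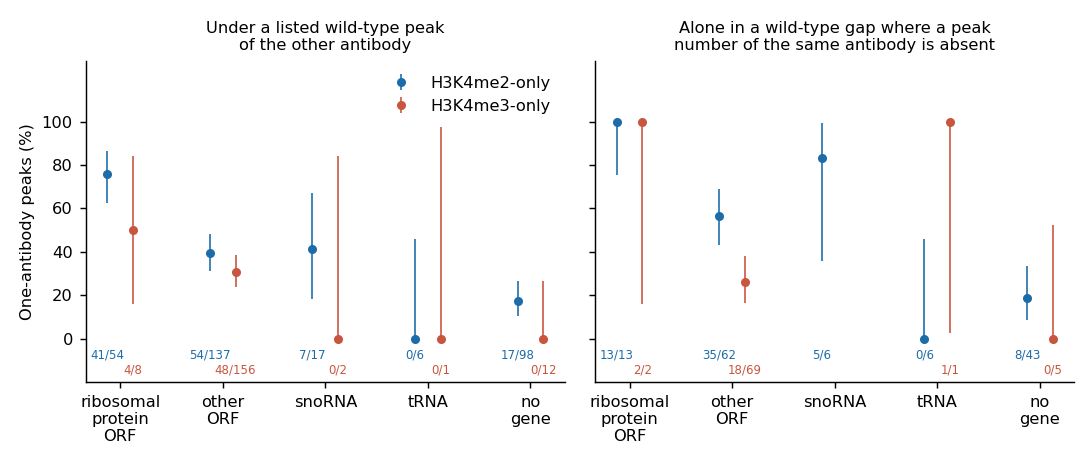
Percent of one-antibody peaks (vertical axis, with exact 95% binomial intervals) that overlapped a listed wild-type peak of the other antibody (left) and, among those alone between neighbouring wild-type peaks, that had an absent wild-type peak number of the same antibody (right), by gene class. Counts are printed under the points. With H3K4me2, ribosomal protein ORFs are highest (41 of 54 and 13 of 13) and tRNA genes are at 0 of 6 in both panels.

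Among the genes often altered in laboratory strains, URA3 had an H3K4me2-only peak of 160 bp at percentile 1.29, inside a wild-type H3K4me3 peak of 879 bp at percentile 98.7. HIS3 lay under shared peaks of both antibodies, and LEU2 and MET17 lay under none. Whether reads at URA3 and HIS3 come from the gene at its own place or from an introduced copy was not tested.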

How the data were processed

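Peak lists of 4 libraries were used, assigned to groups and replicates by the sample titles: H3K4me2 and H3K4me3 of set1 deletion cells and of Cps25 wild-type cells, replicate 1 of each. Bowtie 1.1.2, MACS2 2.1.1 and the build sacCer3 are named in the submitters' processing notes, with no settings. The read depth and the control are not given in the sources used here. For each peak there is a score deposited by the authors with no stated scale, which served only to rank peaks within a list. Each list belongs to 1 library, so no pooling of replicates was seen. The authors' gene ontology tables were not used.

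Members were chosen by an overlap of at least 1 bp on all nuclear chromosomes. Mitochondrial peaks were kept apart. The overlap code was checked against bedtools 2.31.1, with 0 differing peaks. Python 3.11.15, numpy 2.4.6, pandas 2.3.3, scipy 1.17.1 and matplotlib 3.10.9 were used. Gene positions and names were those of RefSeq for assembly R64 (6477 genes, 6002 nuclear ORFs), with strand read from the systematic name. Each peak went to the first class it touched, in the order tRNA, snoRNA, snRNA, other RNA, ribosomal protein, glycolysis, translation factor, histone and other ORF. Chromosome ends are the last annotated feature or peak.

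Members and gene lists were chosen with earlier results of these data known. Named are, in each set, the 10 highest scores, the 5 widest peaks, members over RNA genes and over genes of 4 lists (examples and counts for the largest), the 5 highest and 3 widest over no gene, members within 10 kb of an end, the 3 nearest the threshold on each side, genes under both sets and 6 marker loci. Other genes named to complete a count were chosen after their values were seen. Sequence content was not analysed here, as no genome sequence was used. No test was made between single lists. Alternatives were a 50% overlap, lists extended by 100 bp, peaks within 200 bp merged, the upper 50% by score, equal list lengths, and 2 added after seeing the data.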

Additional observations from a re-analysis of the deposited data

How the results depend on the processing

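Over 8 alternatives, 53 of 80 values moved by less than their counting interval or, for the number of peaks, by less than 1.5 times, and no comparison between the sets could be tested. Counting as shared only peaks with 50% covered gave median widths of 200 bp (H3K4me2-only) and 194 bp (H3K4me3-only). The upper 50% of both lists left 112 H3K4me2-only and 40 H3K4me3-only peaks, with 39.3% and 70% over ORFs, 45.5% and 20% over no gene, medians of 285 and 278 bp, and 9.82% and 2.5% under a wild-type peak of the other antibody. The upper 50% of the own list alone left 72 and 8 peaks, with 20.8% and 37.5% over ORFs, 66.7% and 50% over no gene, and 13.9% and 0% under such a wild-type peak, and the H3K4me3-only median was 165.5 bp. With equal list lengths the H3K4me2-only shares were 55.4% over ORFs, 35.1% over no gene and 31.2% under a wild-type peak. Of 2 alternatives chosen after seeing the data, a distance of at least 1000 bp left 203 and 129 peaks, with 45.8% of the H3K4me2-only ones under a wild-type peak, and leaving out the centromere intervals moved no value past its interval. In these alternatives the share over no gene stayed higher in the H3K4me2-only set. The cause of these moves was not tested.

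No paired analysis was possible because each group has 1 list. Leaving out a replicate was not run for the same reason. The read depth behind the lists is unknown.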

Other observations

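Mitochondrial DNA, kept out of both sets, held 53 H3K4me2 peaks in set1 deletion cells, of which 46 overlapped no H3K4me3 peak, and 8 H3K4me3 peaks, all of which overlapped an H3K4me2 peak. The median widths were 291 and 323.5 bp. Neither wild-type list held a mitochondrial peak, but set1 deletion peaks of the same antibody had been taken out of those lists. Wild-type peaks at these places would therefore not be listed.

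Along the nuclear chromosomes, H3K4me2-only peaks ranged between 8.69 per annotated megabase on chromosome I and 40.7 on chromosome VI. H3K4me3-only peaks ranged between 0 on chromosome I and 31.6 on chromosome III, the chromosome with 9 H3K4me2-only and 10 H3K4me3-only peaks.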
